A study of Arabidopsis thaliana with 10 samples.

Results

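The subject here is a set of 68 protein-coding genes of Arabidopsis thaliana, out of 27165 coding genes with small RNA signal in at least 1 library, whose small RNA signal stood above WT Col-0 pollen in both pMGH3::RTL1 lines and nearer to it with pLAT52::RTL1. The genes were chosen on the measured values. Signal from 18 to 30 nt was summed per gene, both pMGH3::RTL1 libraries had to reach 15 RPM and at least 2 times the higher WT Col-0 library, and the pLAT52::RTL1 mean had to lie between 0.7 and 2 times the WT Col-0 mean. The RTL1 transgene itself, the MGH3 gene, a few silencing genes and a cluster of pentatricopeptide repeat genes were left out beforehand. The differences among pMGH3::RTL1, pLAT52::RTL1 and WT Col-0 that follow are therefore a description of the choice, without tests, and only the sorted pollen is independent of it.

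RTL1 is an RNase III-like protein that cuts long double-stranded RNA and so suppresses small interfering RNA (siRNA) production when it is expressed ectopically. The study expressed RTL1-Myc from 2 promoters in Col-0 plants and sequenced small RNAs of mature pollen. pMGH3::RTL1 pollen uses a promoter that switches on in the generative cell lineage once it has formed, pLAT52::RTL1 pollen uses one that is active in late microspores and then mostly in the vegetative cell, and WT Col-0 pollen carries no transgene. Each of these groups has 2 libraries, and the libraries of a construct are independent transgenic lines. The remaining libraries are from segregating pollen of FTL1230/+;nrpd1a-3/+ plants, also Col-0, in which a LAT52-driven DsRed reporter is linked to the wild-type NRPD1a allele. DsRed-negative nrpd1a-3 FTL grains, which carry a mutant allele of the main Pol IV (RNA polymerase IV) subunit, and DsRed-positive WT FTL grains were sorted at the same time, with 2 libraries each. Because whole grains were extracted, fewer cells of a type and less RNA per cell cannot be told apart.

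In plants, microRNAs of mostly 21 nt are cut from hairpins, siRNAs of 21 and 22 nt come from double-stranded copies of transcripts, and siRNAs of 24 nt come from Pol IV transcripts of transposons and repeats. Fragments of tRNA, rRNA and snoRNA are also captured by small RNA libraries. A locus table that counts every read lying in a gene model adds all of these to the coding gene that contains or overlaps them.

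Several of the highest genes of the set contain or overlap such a gene, so those sequences are given first, with capitals for the microRNA seed (bases 2 to 8). All were read from TAIR10.1. The mature microRNAs of MIR840, which lies on the same strand as the end of the pentatricopeptide repeat gene AT2G02750, are at chr2:771385-771405 and chr2:771492-771513 on the minus strand. Those of MIR5663 are on the minus strand, opposite to the RING finger gene AT1G50440, at chr1:18686859-18686879 and chr1:18686942-18686962, and those of MIR844 are on the minus strand inside AT2G23348 at chr2:9942202-9942222 and chr2:9942261-9942281. A tRNA-Arg gene (AT2G24380) fills chr2:10373576-10373648 on the plus strand, within the first bases of AT2G24390, which encodes an AIG2-like protein. Runs of 18 bases identical to 18S rRNA occur at chr2:10756775-10756792 (minus strand) in AT2G25260 and at chr3:9851131-9851148 (plus strand) in AT3G26782, at positions 109 and 1253 of the rRNA counted from its 5′ end.
ath-miR840-3p: uUGUUUAGgucccuuaguuuc
ath-miR840-5p: aCACUGAAggaccuaaacuaac
ath-miR5663-3p: uGAGAAUGcaaauccuuagcu
ath-miR5663-5p: aGCUAAGGauuugcauucuca
ath-miR844-3p: uUAUAAGCcaucuuacuaguu
ath-miR844-5p: uGGUAAGAuugcuuauaagcu
tRNA-Arg: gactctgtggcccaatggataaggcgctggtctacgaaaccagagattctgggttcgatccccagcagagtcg
18S rRNA run in AT2G25260: agttatagtttgtttgat
18S rRNA run in AT3G26782: tttcttgattctatgggt
No seed is shared among these 6 microRNAs.

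The unit limits what the set can show. The value of a single read was taken to be the most frequent value of its library, and all read numbers here rest on that. On this basis a read counted for 1.06 and 1.46 RPM in the pMGH3::RTL1 libraries, for 0.504 and 0.954 RPM in pLAT52::RTL1 and for 0.430 and 1.08 RPM in WT Col-0, so 15 RPM stood for 14.1 and 10.3 reads in pMGH3::RTL1 and for 34.9 and 13.8 reads in WT Col-0. The signal listed over all loci summed to 8672910 and 8060210 RPM in pMGH3::RTL1 pollen, against 3743340 and 6817520 RPM in WT Col-0 pollen. MicroRNA genes alone summed to 1685210 and 1909830 RPM in pMGH3::RTL1, against 1187760 and 1466070 RPM in pLAT52::RTL1 and 930380 and 1168820 RPM in WT Col-0. Among the marker lists, the 26 photosynthesis genes summed to 1306 and 1229 RPM in pMGH3::RTL1, against 685 and 1071 RPM in pLAT52::RTL1 and 527 and 1068 RPM in WT Col-0. The 13 sperm cell genes summed to 516 and 551 RPM in pMGH3::RTL1, against 741 and 1086 RPM in pLAT52::RTL1 and 775 and 1077 RPM in WT Col-0, and the 11 vegetative cell genes to 17119 and 17695 RPM in pMGH3::RTL1, against 13214 and 17491 RPM in pLAT52::RTL1 and 6447 and 16156 RPM in WT Col-0. No gene of these lists was at 0 in all libraries. The part of these differences in the set was not tested.

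The number of genes in the set changed with the scaling and with the libraries used. The paper considered loci with raised small RNA in these lines to be indirect effects of normalization, which was not tested here. As deposited, 3455 coding genes reached 15 RPM in both pMGH3::RTL1 libraries and 2628 of them also met the pLAT52::RTL1 bounds. Over these 2628 genes the ratio of the lower pMGH3::RTL1 library to the higher WT Col-0 library had a median of 1.04 and a 90th percentile of 1.61, and its highest value was 3.19. The set is the upper end of this one-peaked distribution, with 37 of its 68 genes at ratios between 2 and 2.2 and a further 65 genes just outside, between 1.8 and 2. Scaled to the summed signal of microRNA genes, the median ratio was 0.604, the highest was 1.82, and no coding gene met the rule. Scaling to the summed signal listed also left 0 genes, and leaving rRNA, tRNA, snRNA and snoRNA out of that sum left 1, whereas the median ratio of the tested loci left 57, of which 52 were among the 68. Across the tested loci the middle log2 difference between pMGH3::RTL1 and WT Col-0 was 0.08 as deposited, and it became -0.68, -0.63, -0.49 and 0.00 under these scalings in the order given. Leaving out 1 library also moved the count, to 405 without WT Col-0 replicate 2, 123 without WT Col-0 replicate 1, 234 without pMGH3::RTL1 replicate 1 and 335 without pMGH3::RTL1 replicate 2. The same rule with the constructs exchanged took 183 coding genes.

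**Figure D1:**
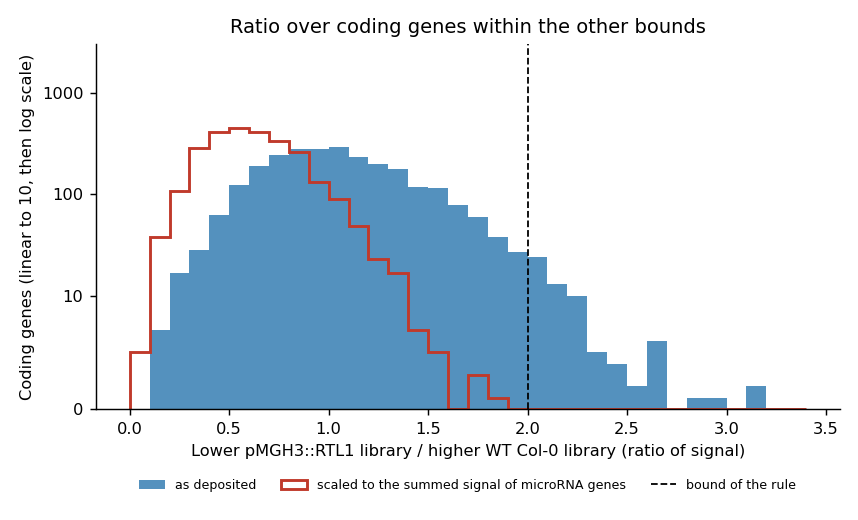
Histogram of the ratio of signal in the lower pMGH3::RTL1 library to that in the higher WT Col-0 library (x axis) over the 2628 coding genes that met the other bounds (y axis, number of genes, linear to 10 and logarithmic above). The filled bars are the values as deposited and the outline those scaled to microRNA genes, for which no gene reaches the dashed bound at 2.

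Within the set, pMGH3::RTL1 pollen had between 2.09 and 5.0 times the mean signal of WT Col-0, with a median of 2.71, and pLAT52::RTL1 pollen had between 0.760 and 1.99 times, with a median of 1.65. The rule allowed pLAT52::RTL1 means up to 2 times WT Col-0, so its genes need not be at the WT Col-0 level there. The pLAT52::RTL1 mean was above the WT Col-0 mean in 62 of 68 genes (91.2%), against 69.4% of the 3455 coding genes that reached 15 RPM, and both pLAT52::RTL1 libraries were above both WT Col-0 libraries in 46 genes (67.6%), against 40.9%. Both pMGH3::RTL1 libraries were above both pLAT52::RTL1 libraries in 65 genes, against 38.5% of the 3455. The rule fixed much of these counts, and nothing is read from them. The 6 genes whose pLAT52::RTL1 mean was not above WT Col-0 were AT1G50440, AT4G12770, AT1G60240, AT3G60080, AT1G22780 and AT2G18260, and the 3 in which pLAT52::RTL1 reached a pMGH3::RTL1 library were AT1G60950, AT3G51150 and AT5G41240. These 9 genes were named after their values were seen.

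The summed signal of the 68 genes was 13916 and 12756 RPM in pMGH3::RTL1, against 6495 and 7064 RPM in pLAT52::RTL1 and 4079 and 5262 RPM in WT Col-0. It was concentrated in a few loci. The 4 highest genes held 71.4% of it in pMGH3::RTL1, while 47 genes were under 50 RPM and 33 under 30 RPM on average, and the median gene had 32.1 and 30.4 RPM in pMGH3::RTL1, against 18.4 and 20.9 RPM in pLAT52::RTL1 and 11.3 and 13.0 RPM in WT Col-0.

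**Figure D2:**
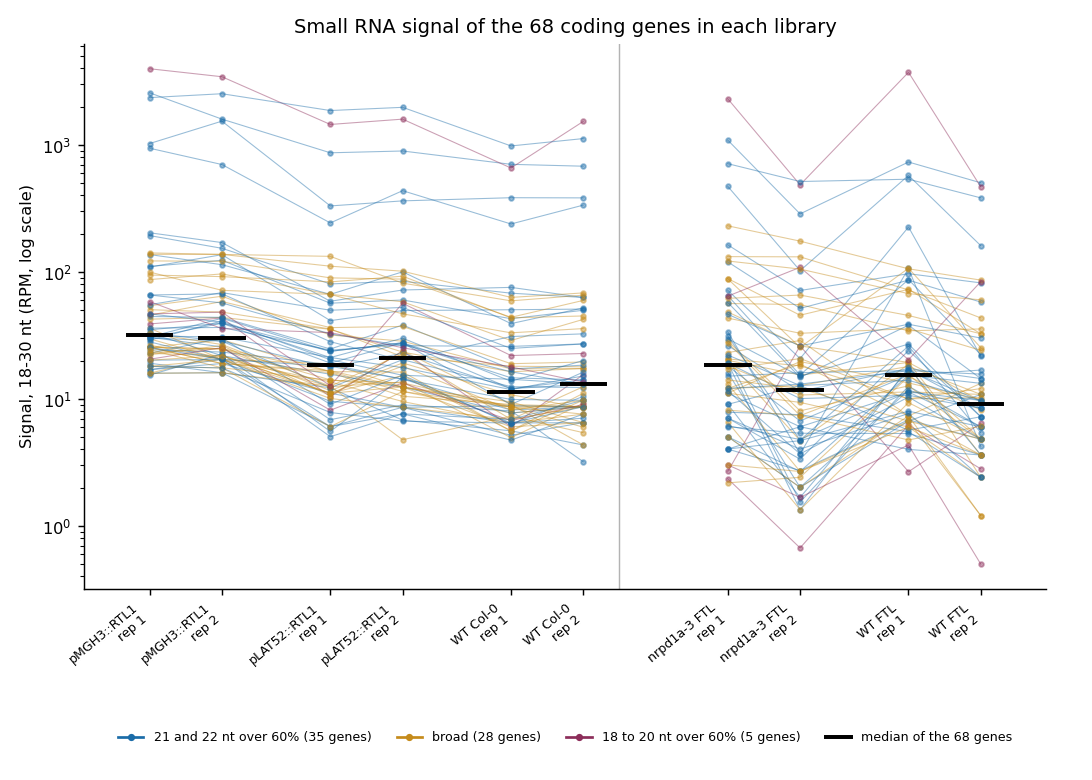
Signal from 18 to 30 nt (y axis, RPM, log scale) of each of the 68 coding genes in the 10 libraries (x axis), with lines joining a gene's values and black bars at the median. Colours give the class of RNA length in pMGH3::RTL1 pollen, 5 genes stand far above the others, and a value of 0 is drawn at 0.5.

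AT2G24390, the host of the tRNA-Arg gene, had the highest signal, with 3977 and 3441 RPM in pMGH3::RTL1, against 1449 and 1595 RPM in pLAT52::RTL1 and 657 and 1531 RPM in WT Col-0. RNAs of 18 to 20 nt made up 99.6% of it in pMGH3::RTL1 and 98.8% in WT Col-0. The tRNA gene was listed with the same values at 18, 19 and 20 nt, for example 3220 and 2510 RPM at 19 nt in pMGH3::RTL1 and 546 and 1215 RPM in WT Col-0. The signal of the coding gene is thus that listed for the tRNA gene. Of the pMGH3::RTL1 signal, 33.9% came from values per length that were whole numbers of reads. The other values include reads with several genomic hits, in a share that was not measured, so other loci may share them. The WT Col-0 libraries lay far apart here and the sorted libraries farther, with 2304 and 485 RPM in nrpd1a-3 FTL and 3729 and 467 RPM in WT FTL.

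AT2G02750 followed, with 2356 and 2529 RPM in pMGH3::RTL1, against 1864 and 1976 RPM in pLAT52::RTL1 and 981 and 1121 RPM in WT Col-0. The 3 groups did not overlap. MIR840, a microRNA gene inside it, held 99.5% of this signal in pMGH3::RTL1 and 99.1% in WT Col-0, and RNAs of 22 nt, the length of the 5p form printed above, made up 77.5% in pMGH3::RTL1 and 78.7% in WT Col-0.

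AT1G50440 had 1025 and 1538 RPM in pMGH3::RTL1, against 331 and 362 RPM in pLAT52::RTL1 and 384 and 383 RPM in WT Col-0. RNAs of 21 nt, the length of both miR5663 forms, were 97.2% of the signal in pMGH3::RTL1 and 96.6% in WT Col-0. MIR5663 was not analysed here as a locus of its own, so which strand and which form the reads belong to is unknown. This gene was at the level of WT Col-0 in pLAT52::RTL1 pollen and well above it in pMGH3::RTL1 pollen.

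AT2G23348, an uncharacterised gene that contains MIR844, had 193 and 153 RPM in pMGH3::RTL1, against 80.4 and 84.4 RPM in pLAT52::RTL1 and 67.98 and 62.9 RPM in WT Col-0. The microRNA gene accounted for all of the signal in pMGH3::RTL1 and 97.4% in WT Col-0. snoRNA genes, which guide modification of rRNA, lie within 3 further genes. AT2G43110, which encodes a subunit of the U3-containing pre-ribosomal complex, holds 4 of them and had 58.4 and 35.8 RPM in pMGH3::RTL1, against 33.3 and 25.3 RPM in pLAT52::RTL1 and 17.9 and 13.5 RPM in WT Col-0. The signal listed for the snoRNA genes was most of that of the coding gene, with AT2G43137 at 38.2% in pMGH3::RTL1 and 27.3% in WT Col-0, AT2G43138 at 25.8% and 19.1%, AT2G43139 at 24.1% and 15.7%, and AT2G43141 at 5.36% and 11.7%. AT1G31860, which encodes a bifunctional enzyme of histidine synthesis, contains 3 snoRNA genes and had 25.5 and 24.8 RPM in pMGH3::RTL1, against 14.1 and 12.4 RPM in pLAT52::RTL1 and 9.47 and 6.504 RPM in WT Col-0. EIF4A-2 (AT1G54270), a translation initiation helicase, contains 1 snoRNA gene and is named for that overlap, after its values were seen. In all, 7 genes of the set overlap an annotated microRNA, tRNA or snoRNA gene.

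The genes with an 18S rRNA run were also mostly short RNA. AT3G26782, a tetratricopeptide-like gene, had 38.9 and 43.3 RPM in pMGH3::RTL1, against 10.4 and 23.8 RPM in pLAT52::RTL1 and 6.02 and 15.5 RPM in WT Col-0, of which 85.0% in pMGH3::RTL1 and 80.0% in WT Col-0 was 18 to 20 nt. AT2G25260, named after its values were seen, had 20.5 and 25.3 RPM in pMGH3::RTL1, against 8.15 and 13.4 RPM in pLAT52::RTL1 and 6.74 and 9.03 RPM in WT Col-0, with 94.5% of the signal from 18 to 20 nt in pMGH3::RTL1 and 83.6% in WT Col-0. GSTT2 (AT5G41240), a glutathione S-transferase gene also named after its values were seen, had 94.3% of its signal at these lengths in pMGH3::RTL1 without such a run. Setting aside the 9 genes that overlap a small RNA gene or hold an rRNA run, a choice made after seeing the data, the other 59 had a median log2 change (signal + 1) of 1.33 in pMGH3::RTL1 and 0.66 in pLAT52::RTL1 against WT Col-0. All 68 gave 1.36 and 0.66, and all tested loci 0.08 and 0.17.

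**Figure D3:**
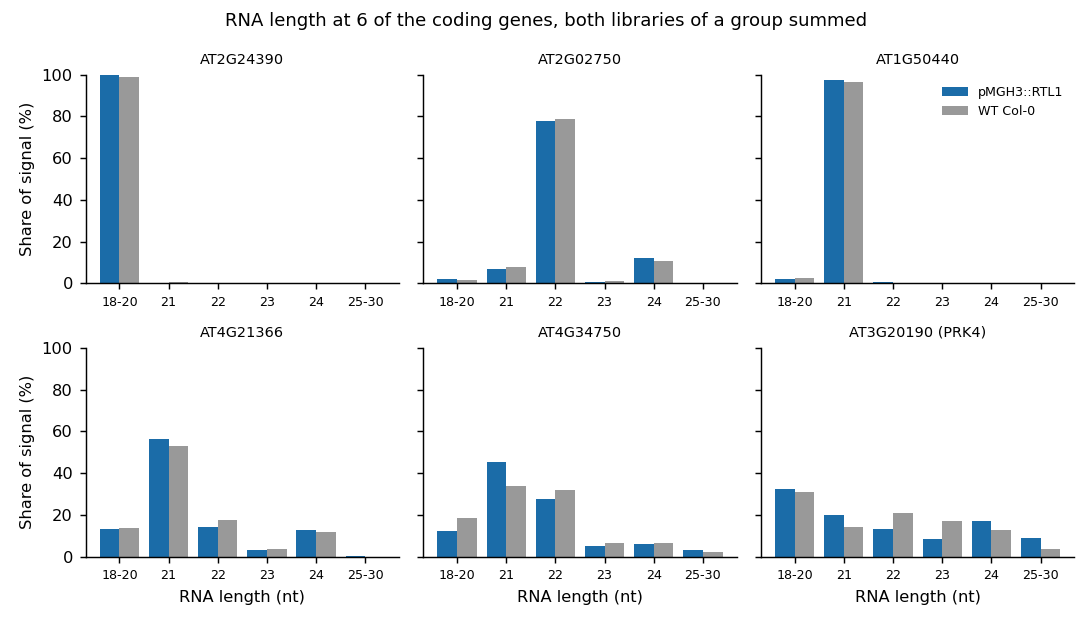
Share of the 18 to 30 nt signal (y axis, percent) by RNA length (x axis, nt) at 6 of the genes, with pMGH3::RTL1 in blue and WT Col-0 in grey, each over its 2 libraries. A single length class dominates at AT2G24390, AT2G02750 and AT1G50440, whereas at PRK4 the highest class, 18 to 20 nt, holds 32.5% in pMGH3::RTL1 and 31.2% in WT Col-0.

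Among genes without a contained small RNA gene, the highest was AT4G21366, a protein kinase-like gene of 415 bp at chr4:11383541-11383955. It had 2571 and 1596 RPM in pMGH3::RTL1, against 866 and 895 RPM in pLAT52::RTL1 and 703 and 679.6 RPM in WT Col-0. The gene lies wholly within PSEUDOSRKA (AT4G21370), the pseudogene of the S-locus receptor kinase whose loss is part of self-fertility in Arabidopsis thaliana, and on its other strand. PSEUDOSRKA was listed at 2996 and 1874 RPM in pMGH3::RTL1, against 1023 and 1053 RPM in pLAT52::RTL1 and 817 and 779 RPM in WT Col-0. Without strand the reads of both genes cannot be told apart. RNAs of 21 nt were 56.4% of the signal in pMGH3::RTL1 and 52.9% in WT Col-0. Of the pMGH3::RTL1 signal, 0.0351% came from values per length that were whole numbers of reads. The other values include reads with several genomic hits, in a share that was not measured.

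AT4G34750, a SAUR-like auxin-responsive gene, had 941 and 700.5 RPM in pMGH3::RTL1, against 243 and 436 RPM in pLAT52::RTL1 and 238 and 336 RPM in WT Col-0. Its RNAs were 45.5% 21 nt and 27.8% 22 nt in pMGH3::RTL1, against 33.8% and 31.8% in WT Col-0. The pLAT52::RTL1 total hid differences by length. RNAs of 18 nt gave 278 RPM of replicate 2 and 44.1 RPM of replicate 1, while the WT Col-0 libraries held 2.58 and 10.8 RPM. Both pLAT52::RTL1 libraries lay below both WT Col-0 libraries at 21 nt (78.1 and 43.9, WT Col-0 83.9 and 110 RPM). The same held at 22 nt (42.3 and 21.9, WT Col-0 79.6 and 103 RPM). The cause was not tested. AT1G72800, an RNA-binding protein gene, had 137 and 114 RPM in pMGH3::RTL1, against 66.5 and 100.1 RPM in pLAT52::RTL1 and 39.2 and 52.0 RPM in WT Col-0, with 76.3% at 21 nt in pMGH3::RTL1 and 77.0% in WT Col-0, all in whole reads. AT4G12770, a DnaJ-domain chaperone gene, had 203 and 170.2 RPM in pMGH3::RTL1, against 58.7 and 72.0 RPM in pLAT52::RTL1 and 75.5 and 62.9 RPM in WT Col-0, and its constructs differed from each other more than pLAT52::RTL1 differed from WT Col-0.

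The kinase genes of the set numbered 6. AT3G57730, a kinase gene that is fully covered by the opposite-strand kinase gene AT3G57720, had 137 and 137 RPM in pMGH3::RTL1, against 111 and 101 RPM in pLAT52::RTL1 and 63.0 and 68.3 RPM in WT Col-0, and it was 1 of only 2 genes with over 30% of its pMGH3::RTL1 signal at 24 nt (40.4%), the other being the germin-like gene AT5G39100, named after its values were seen. AT3G57720 was listed at 204 and 180 RPM in pMGH3::RTL1, against 143 and 117 RPM in pLAT52::RTL1 and 122 and 112 RPM in WT Col-0. Without strand the reads of AT3G57730 and AT3G57720 cannot be told apart. PRK4 (AT3G20190), a receptor-like kinase of a family that acts in pollen tubes, had 141 and 137 RPM in pMGH3::RTL1, against 133 and 81.5 RPM in pLAT52::RTL1 and 59.2 and 65.6 RPM in WT Col-0. No length class held most of its signal, with 32.5% at 18 to 20 nt, 19.8% at 21 nt and 16.97% at 24 nt in pMGH3::RTL1. The remaining kinase genes were AT4G21366, AT1G11390, AT1G35670 and MPK19 (AT3G14720).

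The largest ratios were at genes of low signal. AT2G40205, a ribosomal protein L41 gene, had 30.6 and 25.7 RPM in pMGH3::RTL1, against 6.85 and 8.98 RPM in pLAT52::RTL1 and 8.05 and 3.20 RPM in WT Col-0, of which 76.0% was 21 nt in pMGH3::RTL1. The second L41 gene of the set, AT3G11120, had no whole-read value in pMGH3::RTL1, and AT2G40205 had 3.77% of its signal in such values. Reads with several genomic hits therefore contributed to the signal of both genes, in a share that was not measured. AT3G60750, which encodes transketolase of carbon metabolism, had 54.1 and 64.3 RPM in pMGH3::RTL1, against 31.9 and 28.5 RPM in pLAT52::RTL1 and 17.2 and 17.3 RPM in WT Col-0, all in whole reads. Its length profile differed between groups, with 41.0% at 18 to 20 nt and 1.79% at 24 nt in pMGH3::RTL1, against 10.7% and 44.3% in WT Col-0.

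IAR4 (AT1G24180), a subunit of mitochondrial pyruvate dehydrogenase, had 25.5 and 29.2 RPM in pMGH3::RTL1, against 16.4 and 11.4 RPM in pLAT52::RTL1 and 7.74 and 8.67 RPM in WT Col-0. GRF2 (AT1G78300), a 14-3-3 protein gene, had 50.4 and 48.2 RPM in pMGH3::RTL1, against 35.5 and 21.5 RPM in pLAT52::RTL1 and 18.1 and 17.9 RPM in WT Col-0. APG9 (AT2G31260), an autophagy gene, had 15.9 and 16.1 RPM in pMGH3::RTL1, against 12.2 and 6.80 RPM in pLAT52::RTL1 and 5.60 and 4.34 RPM in WT Col-0. In each of these 3 genes the groups did not overlap, with pLAT52::RTL1 between the others. AT3G06778, a DnaJ-domain chaperone gene, had 36.1 and 20.5 RPM in pMGH3::RTL1 and 6.45 and 7.59 RPM in WT Col-0, AT4G01210, a glycosyl transferase gene, had 24.4 and 23.4 RPM in pMGH3::RTL1 and 8.17 and 8.67 RPM in WT Col-0, and AT5G15060, of the LOB-domain family, had 16.98 and 19.0 RPM in pMGH3::RTL1 and 5.16 and 6.504 RPM in WT Col-0. AT5G25560, a RING-type zinc finger gene, had 32.9 and 21.9 RPM in pMGH3::RTL1 and 7.74 and 8.67 RPM in WT Col-0. The pLAT52::RTL1 means of these 4 genes were between those of pMGH3::RTL1 and WT Col-0.

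By function the set was mixed. RDR1 (AT1G14790), an RNA-dependent RNA polymerase that makes double-stranded RNA in antiviral silencing, was the only 1 of 23 listed RNA silencing genes in it, with 30.8 and 43.1 RPM in pMGH3::RTL1, against 23.7 and 27.7 RPM in pLAT52::RTL1 and 12.05 and 14.1 RPM in WT Col-0. Its RNAs were 58.9% 21 nt and 30.8% 22 nt in pMGH3::RTL1. None of the 26 photosynthesis, 13 sperm cell and 11 vegetative cell genes of the lists belonged to it. The lists are not complete, and the set holds the ferredoxin-like gene FED A (AT1G60950), which is on none of them. The median log2 change in pMGH3::RTL1 against WT Col-0 was -0.37 over the RNA silencing list, 0.76 over the photosynthesis list, -0.49 over the sperm list and 0.79 over the vegetative list, beside -0.19 over all coding genes and 0.58 over the 3455. By their product names, 4 of 343 ribosomal protein genes (1.17%), 6 of 1462 ubiquitin, RING, F-box and proteasome genes (0.410%), 6 of 1370 kinase genes (0.438%), 3 of 255 heat shock and chaperone genes (1.18%) and 1 of 641 transcription factor genes (0.156%) were in the set, beside 0.250% of all coding genes.

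At the 2-fold bound, the 3 genes just inside were PAO4 (AT1G65840), a polyamine oxidase, with 99.7 and 71.6 RPM in pMGH3::RTL1 and 33.1 and 35.8 RPM in WT Col-0, RPL18 (AT3G05590), a ribosomal protein of the large subunit, with 46.7 and 40.2 RPM in pMGH3::RTL1 and 13.8 and 20.1 RPM in WT Col-0, and AT2G43110, given above. Just outside were PKL (AT2G25170), a chromatin remodeller, at 93.9 and 96.4 RPM in pMGH3::RTL1 and 43.7 and 47.2 RPM in WT Col-0, AT2G28401 at 167 and 136 RPM in pMGH3::RTL1 and 68.8 and 64.0 RPM in WT Col-0, and CHX6A (AT1G08140), a cation exchanger, at 221 and 203 RPM in pMGH3::RTL1 and 89.5 and 103 RPM in WT Col-0. The 43 genes outside the rule for named genes had means of 16.0 to 123 RPM in pMGH3::RTL1 (median 25.1), 6.33 to 88.7 RPM in pLAT52::RTL1 (median 16.3) and 6.16 to 51.8 RPM in WT Col-0 (median 9.62).

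RNA length was not used by the rule, although the same libraries chose the genes. RNAs of 21 and 22 nt made up a median of 61.1% of a gene's signal in pMGH3::RTL1 and 53.2% in WT Col-0 within the set, against 36.0% and 34.6% over the other 3387 coding genes at 15 RPM. Over 60% of the pMGH3::RTL1 signal was 21 and 22 nt in 35 genes of the set (51.5%), against 23.1% of the others. RNAs of 24 nt passed 30% in 2 genes of the set and in 1045 of the 3387 others. Another 5 genes had over 60% at 18 to 20 nt, and 28 had no class above 60% and are called broad. Values from 12 or more reads per library in the sorted pollen gave a median of 40.5% at 21 and 22 nt over 44 genes in nrpd1a-3 FTL and 46.7% over 42 genes in WT FTL, against 30.9% and 28.2% over the other coding genes with as many reads.

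Position, length and promoter motifs were compared with the other coding genes. The genes lie on all 5 chromosomes (19, 10, 16, 8 and 15), had a median length of 2573 bp and 39.0% GC, against 2515.5 bp and 39.3% over the other coding genes at 15 RPM, and 40 overlap no other annotated gene. A further 21 overlap only genes that are not small RNA genes. Over all 68 genes, including those that overlap a small RNA gene, 19 overlap a coding gene on the opposite strand. In pMGH3::RTL1, whole-read values held at least 90% of the signal at 37 genes and under 50% at 17 genes. In the 250 bp before the gene start, AACCG was found on either strand in 16 of 68 genes (23.5%) and in 23.3% of all coding genes, TATAAA in 41.2% and 47.8%, and GGCCCA, known from ribosomal protein gene promoters, in 16.2% and 13.9%. AACCGTC was in 2.94% of the set and 1.54% of all coding genes, AGAAA in 85.3% and 82.5%, GTGA in 70.6% and 77.4%, and TGTGGTT in 2.94% and 4.38%. AAACCCTAA was in 1.47% of the set and 2.57% of all coding genes, and CACGTG in 7.35% and 6.59%. AACCGTC contains AACCG, and such matches are a description only.

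Sorted pollen gives a measurement that the rule did not use and asks whether loss of Pol IV changed the signal of these genes. Without a replicate block no gene of the set passed the threshold. Of 43 genes tested, 0 were called lower in nrpd1a-3 FTL than in WT FTL by limma with Benjamini-Hochberg adjustment, beside 21.8% of all 7380 tested loci and 5.57% of the 3629 tested coding genes, and 0 were called higher, beside 0.0678% and 0.0827%. At an unadjusted p below 0.05 there were 0 in each direction, and limma-voom gave 0 calls with 2 higher at an unadjusted p. The genotypes were sorted simultaneously from the same plants, and same-numbered libraries deviated together (correlation 0.57 across loci), although nothing states that a number marks 1 sort. With the replicate number as a block, limma called 5 of the 43 genes higher (IAR4, PRK4, AT1G16840, AT1G67480 and AT5G20810), beside 9.27% of all loci and 14.4% of coding genes, and 0 lower, beside 48% and 22.8%. That fit left 1 residual degree of freedom, and its spread was pooled over the tested loci, not taken per gene. Leaving out a library leaves a single library in its group, so calls from such fits are not given. The median log2 change over all 68 was 0.29, against -0.97 over all tested loci and 0.02 over tested coding genes. Its sign depended on the libraries, since it was -0.14 without WT FTL replicate 2, -0.20 without nrpd1a-3 FTL replicate 1 and -0.20 scaled to the summed signal listed. This scaling moved the median of all tested loci to -1.46. With 2 libraries a group, a gene that misses the threshold is not shown to be the same in both.

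Both nrpd1a-3 FTL libraries were above both WT FTL libraries in 17 of 68 genes (25%), against 24.7% of the 3455 coding genes at 15 RPM in both pMGH3::RTL1 libraries, and below in 10 (14.7%), against 32.1%. The genes of the length classes lay differently. Of the 28 broad genes, 13 had both nrpd1a-3 FTL libraries above WT FTL and 2 below, with a median log2 difference of 0.69, and of the 35 genes rich in 21 and 22 nt, 4 were above and 7 below, with a median of -0.08. The classes were formed after seeing the data, so their difference has no test. Counts by length class in sorted pollen were not made for other coding genes, so whether the difference is particular to the set is unknown. PRK4 had 231 and 175 RPM in nrpd1a-3 FTL and 106 and 86.2 RPM in WT FTL, a log2 change of 1.06. IAR4 had 23.2 and 28.8 RPM in nrpd1a-3 FTL and 7.34 and 13.3 RPM in WT FTL, and PAO4 had 122 and 105 RPM in nrpd1a-3 FTL and 67.4 and 60.3 RPM in WT FTL. In all 3 genes the groups did not overlap.

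The hosts of microRNA genes lay on the other side on average, with overlap. AT1G50440 had 71.5 and 20.8 RPM in nrpd1a-3 FTL and 226 and 21.7 RPM in WT FTL, AT2G23348 had 33.7 and 3.69 RPM in nrpd1a-3 FTL and 106 and 4.22 RPM in WT FTL, and AT2G02750 had 471 and 102 RPM in nrpd1a-3 FTL and 575 and 161 RPM in WT FTL. In each, replicate 2 of both genotypes was low. All microRNA genes of the series summed to 621288 and 273774 RPM in nrpd1a-3 FTL and 701706 and 358933 RPM in WT FTL, so replicate 2 was low over microRNAs as a whole. AT4G34750 had 711 and 515 RPM in nrpd1a-3 FTL and 537 and 383 RPM in WT FTL, and AT4G21366 had 1089 and 286 RPM in nrpd1a-3 FTL and 733 and 503 RPM in WT FTL, and in both the groups overlapped. Over the 68 genes the summed signal was 6678 and 2758 RPM in nrpd1a-3 FTL and 7376 and 2504 RPM in WT FTL.

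**Figure D4:**
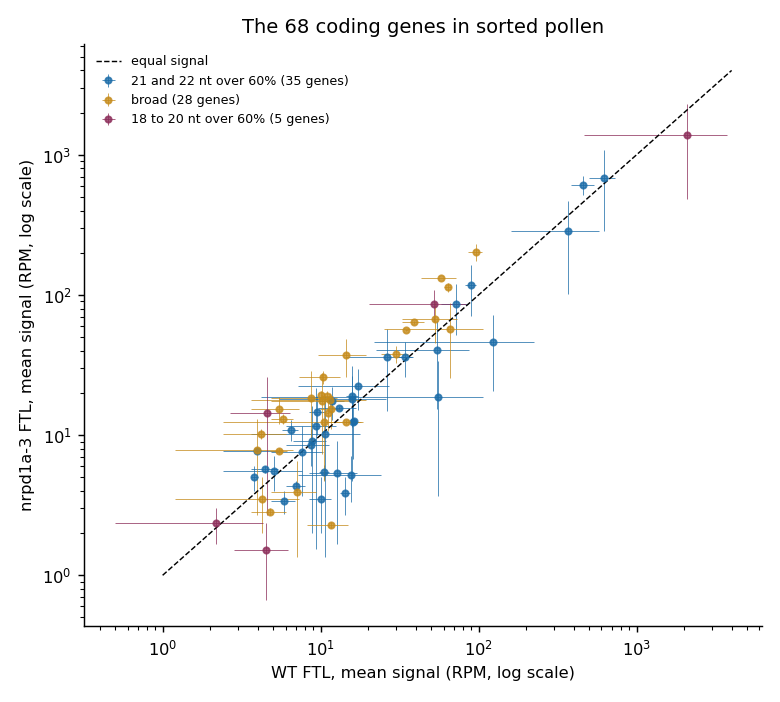
Mean signal of each of the 68 genes in nrpd1a-3 FTL (y axis) and WT FTL (x axis) pollen, in RPM on log scales, with bars from the lower to the higher library and a value of 0 drawn at 0.5. Broad genes lie mostly above the line of equal signal, and genes rich in 21 and 22 nt are scattered about it.

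The sorted wild type also gives a second look at the level in pollen without RTL1. WT FTL and WT Col-0 were prepared differently, the WT FTL grains being sorted and carrying DsRed, so preparation and genotype cannot be told apart. Both WT FTL libraries were above both WT Col-0 libraries in 16 genes (23.5%), against 8.89% of the 3455 coding genes, and below in 18 (26.5%), against 46.4%. The higher WT FTL library reached the lower pMGH3::RTL1 library in 3 genes, a count that was not made for the other coding genes. Low WT Col-0 and high pMGH3::RTL1 values were part of the choice, so nothing is read from these counts and shares.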

How the data were processed

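Small RNAs of pollen were sequenced from 10 libraries in 5 groups of 2. The study's methods state that Bowtie placed reads on TAIR10 without mismatches and that each read was split over its genomic hits. The authors deposited a signal per gene and RNA length, called RPM, but its sum in each library is several times the scale of an RPM, so it is treated here as signal. Between 61.5% and 68.0% of the values were whole reads (tolerance 0.01 reads), so the study's DESeq2 was not used. Signal from 18 to 30 nt was summed per gene, and lengths up to 45 nt, listed in 2 sorted libraries, were left out. limma 3.58.1 (R 4.3.3) was applied to log2(signal + 1) of loci averaging 12 or more hit-weighted reads, with a variance trend and Benjamini-Hochberg adjustment at 0.05, in one fit of 6 libraries, used here only for its medians because the same contrasts chose the genes, and one of 4. Python 3.11.15 with pandas 2.3.3 and numpy 2.4.6 prepared the tables. The fits were also run on simulated data with planted changes, most of which the fit of the 4 sorted libraries missed. p-values measure the spread between libraries only, and nothing says whether the WT Col-0 or sorted replicates are separate plants. Values have no counting interval, because reads are hit-weighted.

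The genes and lists were chosen with earlier results of these data known. Genes are described if they had the 12 largest ratios of the lower pMGH3::RTL1 to the higher WT Col-0 library or the 10 highest pMGH3::RTL1 means, passed the threshold in sorted pollen, belonged to the photosynthesis, RNA silencing, sperm cell or vegetative cell list, or were the 3 just inside or outside the 2-fold bound. Coordinates and sequences are from RefSeq TAIR10.1. Alternatives were 4 scalings, pseudocounts of 0.1 and 5, no filter, other lengths, other minimums, whole reads, a replicate block, no variance trend, limma-voom and each library left out. Proteins and promoter sequences were not printed.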

Additional observations from a re-analysis of the deposited data

How the results depend on the processing

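The number of genes in the set moved most. Under the rule it was 0 scaled to microRNA genes or to the summed signal, and 1 with that sum less structural RNAs. It was 7 with 23 and 24 nt alone, 33 at a minimum of 30 RPM and 2 at a ratio of 3. With at least 90% of the signal in whole-read values it was 37, against 68 as reported. Leaving out each of the 6 libraries gave 66 to 405. An upper bound of 1 for pLAT52::RTL1 over WT Col-0, tried after seeing the data, left 6. With 21 and 22 nt alone there were 75 genes, 24 of them among the 68.

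The median log2 change of the 68 genes, pMGH3::RTL1 minus WT Col-0, was 1.36 as reported, 0.62 scaled to microRNA genes, 0.67 to the summed signal, 0.81 without structural RNAs, 1.11 with a pseudocount of 5, 0.51 at 23 and 24 nt, and 1.25 to 1.36 leaving out a library. For pLAT52::RTL1 it was 0.66, then 0.35, 0.46 and 0.42 under the same scalings, 0.40 at 21 and 22 nt, and 0.53 to 0.69 leaving out a library. For nrpd1a-3 FTL minus WT FTL it was 0.29, 1.34 scaled to the median ratio of tested loci, and -0.20 to 0.66 leaving out a library. The cause was not tested.

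In sorted pollen no gene was called higher, but 1 was when scaled to microRNA genes and 1 without structural RNAs (AT5G20810 in both cases). Beside it, 56 of 7380 tested loci and 51 of 3629 tested coding genes were called higher when scaled to microRNA genes. Without structural RNAs these were 61 loci and 54 coding genes. With the replicate number as a block, 5 were called higher and 0 lower, and over all 7380 loci 684 were higher and 3544 lower, against 5 and 1610 without the block. The deviations of same-numbered libraries correlated at 0.57 across loci, but nothing states that a number marks a shared sort, so the block is given as an alternative. Fits without a library leave a single library in its group, so only their medians are given. The block left the 3 medians at 1.36, 0.66 and 0.29. Depth limits all of this, since 47 of the 68 genes averaged under 50 RPM in pMGH3::RTL1.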

Other observations

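RNAs longer than 30 nt were listed in replicate 1 of both sorted genotypes alone, and over the 68 genes they summed to 4.03 RPM (4 genes) in nrpd1a-3 FTL and 6.34 RPM (8 genes) in WT FTL, which is 0.0603% and 0.0859% of the signal from 18 to 30 nt.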
